A study of Mus musculus with 38 samples.

Results

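Mt1 and Mt2 encode the 2 metallothioneins that most mouse tissues make, and they were followed here across 3 cell populations of the heart. They were selected on their counts, which were strongly higher in infarcted than in Sham hearts in these same libraries, and they are 2 of the 35682 genes in the count table. Mt1 (ENSMUSG00000031765) lies at chr8:94905710-94906955 and Mt2 (ENSMUSG00000031762) at chr8:94898819-94900207 of GRCm39, both on the plus strand, with 5502 bases between them. The comparisons of infarcted hearts with Sham hearts therefore describe the members and are given without a test, whereas the comparison of empagliflozin (EMPA) with vehicle, the comparison of populations and the balance between both genes were tested. These tests use libraries that also took part in the selection, so they are not independent of it.

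Male C57BL/6 mice, 8 to 12 weeks old, received vehicle (5% DMSO in saline) or EMPA, an inhibitor of the sodium-glucose cotransporter SGLT2, at 10 mg/kg per day by mouth for 6 weeks. Sham mice received vehicle and an open-chest operation without ligation. Control-AMI mice received vehicle, and EMPA–Pre-AMI mice received EMPA, before 30 min of coronary ligation and 2 h of reperfusion, so that EMPA was present in infarcted hearts only and no group received EMPA without infarction. Each library pooled 2 hearts, and Sham, Control-AMI and EMPA–Pre-AMI had 4, 5 and 4 libraries of cardiomyocytes, 4, 4 and 5 of endothelial cells (ECs) and 4, 4 and 4 of fibroblasts. Cardiomyocytes were isolated without sorting, ECs were sorted as CD45- CD31+ cells and fibroblasts as CD45- CD31- CD90+ cells.

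Metallothioneins are small, cysteine-rich proteins that bind zinc and copper and take up oxidants through their thiols. Their genes are held ready by the metal-sensing factor MTF1, which binds metal response elements (MREs) once free zinc rises, and they are also induced by glucocorticoids, by interleukin-6 through STAT3, by oxidants and by low oxygen. In the heart they are known as inducible protectants against oxidant and metal stress.

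The MRE is the sequence that ties both members to zinc, so the MRE cores in front of their coding starts are shown first. The core was searched as TGCACNC or TGCGCNC on both strands in the 500 bases of GRCm39 before the coding start of the GENCODE annotation, a window in which the canonical transcript of each gene begins, although the longest Mt2 annotation starts upstream of it. It spans chr8:94905439-94905938 for Mt1 and chr8:94898976-94899475 for Mt2. Each element is written 5′ to 3′ on the strand that reads as the core, with the core in capitals.
Mt1 element 1, plus strand: ctgTGCACACtggcg
Mt1 element 2, plus strand: ctcTGCACTCcgccc
Mt1 element 3, plus strand: aagTGCGCTCggctc
Mt1 element 4, minus strand: gttTGCACCCagcag
Mt1 element 5, plus strand: cttTGCGCCCggact
Mt2 element 1, plus strand: ctcTGCACCCggccc
Mt2 element 2, plus strand: cttTGCGCTCagctc
Mt2 element 3, minus strand: gccTGCACACgccct
Mt2 element 4, minus strand: gccTGCGCACgaccc
Mt2 element 5, minus strand: gccTGCACACgccct
Mt2 element 6, minus strand: ccaTGCACGCgcccc
Mt2 element 7, plus strand: tttTGCGCTCgaccc

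Mt1 held 5 cores and Mt2 held 7, and no core overlapped another. The 5 cores of Mt1 lay 124 to 245 bases before its coding start, and those of Mt2 lay 119 to 453 bases before its own. Over the same window, 35.8% of 21770 protein-coding genes held at least 1 core, 0.478% held at least 5 and 0.046% held at least 7. The antioxidant core TGACNNNGC occurred once in front of each member and in 17.6% of all genes. The hypoxia core, ACGTG or GCGTG, occurred 4 times for Mt1 and 7 times for Mt2, and 3 of the 7 overlapped an MRE core. It was present in 53.8% of all genes, with at least 4 in 7.44% and at least 7 in 0.813%. The glucocorticoid half-site AGAACA and the STAT core TTCNNNGAA were not found in either window, and were present in 29.6% and 13.9% of all genes. These matches are letters in a window and were not tested as binding sites. Sequence farther upstream was not searched, and because the window is set by the coding start, it need not be the promoter of other genes.

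Cardiomyocyte libraries held 2031716 to 4509284 counts, EC libraries 1352514 to 2195308 and fibroblast libraries 1946056 to 2821373. Mitochondrially encoded genes took 46.6% to 66.01% of the counts in cardiomyocytes and 3.48% to 14.6% in the sorted cells. Each population held its own markers: summed levels of 8 cardiomyocyte markers were 38565 to 86496 CPM (counts scaled to a common library size) in cardiomyocytes and 66.6 to 826 in the sorted cells, and those of 9 fibroblast markers were 20353 to 34557 in fibroblasts. Those of 9 endothelial markers were 4460 to 9225 CPM in ECs and 105 to 2405 CPM elsewhere. In ECs 3 of the 9 were called lower in Control-AMI than in Sham, where 6.56% of all genes were called in either direction. Of the same 9, 2 were called higher in EMPA–Pre-AMI than in Control-AMI (2.63% of all genes called). Fibroblast markers were also present in the other populations, at 755 to 6383 CPM in cardiomyocytes and 457 to 8916 CPM in ECs, and these values return beside the results they touch. In bulk libraries, fewer cells of a type and less RNA per cell cannot be told apart.

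Cardiomyocytes had the highest Sham level of Mt1 relative to Mt2 and the smallest differences after infarction. On the CPM scale of the cardiomyocyte fit, Mt1 was 211, 237, 257 and 247 in the 4 Sham libraries. It was 393, 323, 684, 515 and 560 CPM in Control-AMI, against 683, 816, 1044 and 495 CPM in EMPA–Pre-AMI. Every infarcted library lay above every Sham library, and the infarcted groups overlapped each other. The mean of Mt1 was 238 ± 20.0 (SD, n = 4) in Sham, 495 ± 142 (n = 5) in Control-AMI, against 759 ± 231 (n = 4) in EMPA–Pre-AMI. The log2 fold change against Sham was 1.06 (SE 0.24) in Control-AMI, against 1.67 (SE 0.25) in EMPA–Pre-AMI.

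Mt2 in cardiomyocytes was 29.3, 49.5, 29.8 and 40.9 CPM in Sham. It was 172, 128, 211, 312 and 230.2 CPM in Control-AMI, against 257, 567, 448 and 198 CPM in EMPA–Pre-AMI. Again the Sham libraries stood below all others. The means were 37.4 ± 9.73, 211 ± 69.1 and 367 ± 171 CPM, and the log2 fold change against Sham was 2.49 (SE 0.32) in Control-AMI, against 3.29 (SE 0.34) in EMPA–Pre-AMI. By size of the log2 fold change of Control-AMI against Sham, Mt2 ranked 7 and Mt1 ranked 77 among the 9167 genes tested in cardiomyocytes. Background shares of genes whose infarcted libraries all lay above all Sham libraries were 1.34% in Control-AMI, against 3.44% in EMPA–Pre-AMI.

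ECs had the lowest Sham levels. Mt1 was 21.8, 40.9, 10.2 and 21.5 CPM on the EC scale in Sham, which rested on 21 to 86 counts per library. It was 394, 669, 751 and 550.3 CPM in Control-AMI, against 261, 613, 209, 681 and 319 CPM in EMPA–Pre-AMI. The Sham and infarcted ranges were far apart, and the lowest infarcted library was still above the highest Sham library. The means were 23.6 ± 12.7 (SD, n = 4), 591 ± 155 (n = 4) and 416 ± 215 (n = 5) CPM, with log2 fold changes against Sham of 4.63 (SE 0.52) and 4.13 (SE 0.50).

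Mt2 in ECs was 12.98, 25.2, 3.41 and 5.55 CPM in Sham, from 7 to 53 counts. It was 282, 682, 722 and 366 CPM in Control-AMI, against 166, 406, 122, 512 and 249 CPM in EMPA–Pre-AMI. The Sham group did not overlap with either infarcted group. Log2 fold changes against Sham were 5.40 (SE 0.71) and 4.58 (SE 0.68). Sham replicate 2 held the highest level of both genes, and without it the Mt2 log2 fold changes were 6.15 and 5.31. Among 10438 genes, Mt2 ranked 3 and Mt1 ranked 4 in Control-AMI against Sham, where 5.78% of genes had all infarcted libraries above all Sham libraries. In EMPA–Pre-AMI this share was 3.98%.

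In fibroblasts every infarcted library held at least 4082 CPM of both members. Mt1 was 614, 308, 192 and 222 CPM on the fibroblast scale in Sham. It was 4253, 8347, 5919 and 8292 CPM in Control-AMI, against 4082, 6224, 4224 and 8664 CPM in EMPA–Pre-AMI. Sham replicate 1 stood above the other Sham libraries but well below every infarcted library. The means were 334 ± 193, 6703 ± 1987 and 5799 ± 2146 CPM (SD, n = 4 each), with log2 fold changes against Sham of 4.33 (SE 0.41) and 4.12 (SE 0.40).

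Mt2 in fibroblasts was 324, 189, 68.5 and 199 CPM in Sham. It was 4092, 8218, 5436 and 9231 CPM in Control-AMI, against 4245, 5981, 4607 and 11021 CPM in EMPA–Pre-AMI. Its log2 fold changes against Sham were 5.11 (SE 0.51) and 5.05 (SE 0.50), and the Sham libraries did not overlap with the infarcted ones. Together the members took 0.0283% to 0.0991% of all counts in Sham fibroblasts, 0.779% to 1.75% in Control-AMI, against 0.815% to 1.91% in EMPA–Pre-AMI. Mt2 ranked 4 and Mt1 ranked 8 of 10691 genes in Control-AMI against Sham. Background shares of genes with all infarcted libraries above all Sham libraries were 6.63% in Control-AMI, against 6.59% in EMPA–Pre-AMI.

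**Figure D1:**
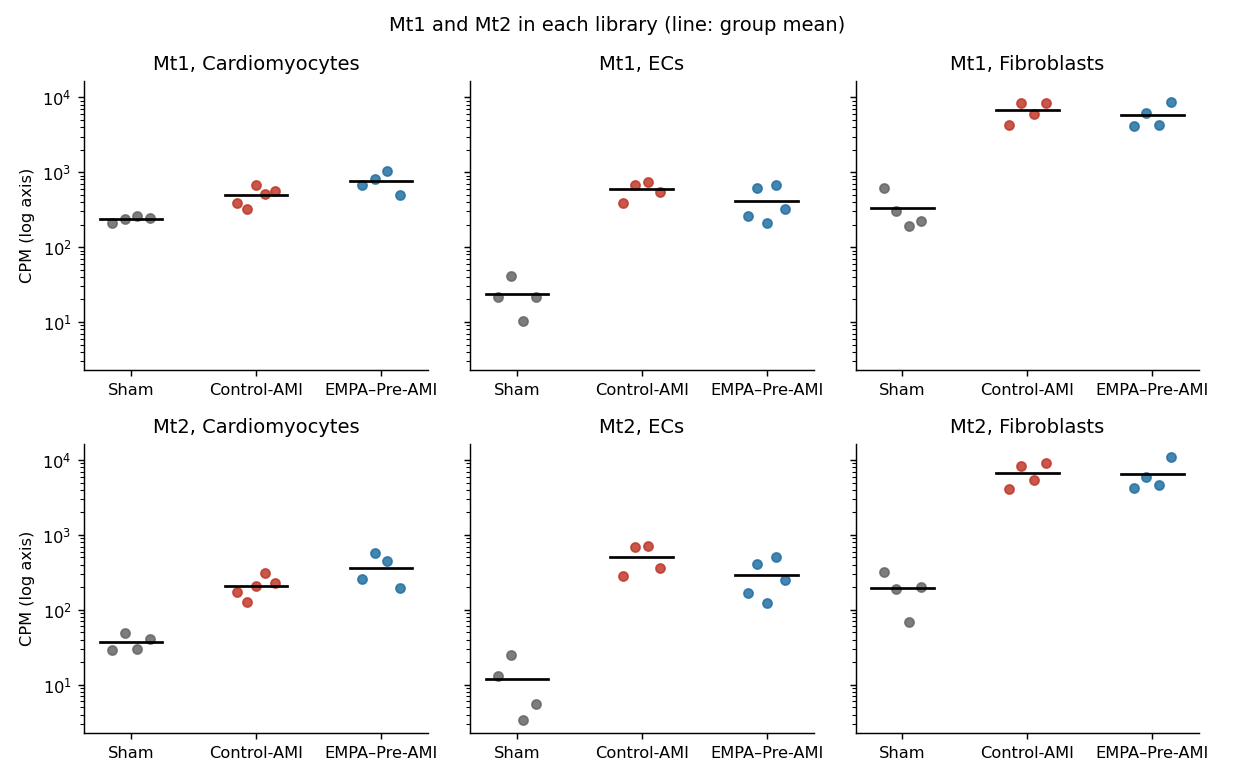
Levels of Mt1 (upper row) and Mt2 (lower row) in every library, in CPM on a log axis, for cardiomyocytes, ECs and fibroblasts; each population has its own normalization, points are libraries and lines are group means. In all 6 panels the Sham libraries lie below the Control-AMI and EMPA–Pre-AMI libraries, which overlap each other.

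EMPA before infarction left both members far above Sham in every population, and no difference between EMPA–Pre-AMI and Control-AMI passed the test. The Control-AMI libraries took part in the selection of the members, so this test is not independent of it. In cardiomyocytes Mt1 was 0.62 higher on the log2 scale in EMPA–Pre-AMI (SE 0.23, 95% interval 0.13 to 1.10, edgeR quasi-likelihood FDR 0.114). Mt2 was 0.80 higher (SE 0.29, interval 0.19 to 1.41, FDR 0.107). In this comparison 0.0218% of all genes were called at an FDR below 0.05, while 2295 of the 9167 genes had an unadjusted p under 0.05. The higher mean came from EMPA–Pre-AMI replicates 1 to 3, whereas replicate 4 held 495 CPM of Mt1 and 198 CPM of Mt2, beside Control-AMI means of 495 and 211.

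Place on the sample sheet moved with that difference. The labels give each library a sample-sheet number, and 4 lists were inferred from the runs in which sample identifiers ascend with that number. The labels do not say what such a list stands for, and by the study's methods all libraries were prepared and sequenced together. By this inference, all Sham and Control-AMI cardiomyocyte libraries and EMPA–Pre-AMI replicate 4 stood on one list, the other EMPA–Pre-AMI replicates on others. With a term for the list the log2 differences were 0.0009 for Mt1 and -0.09 for Mt2, and without replicate 4 they were 0.77 (FDR 0.0281) and 1.00 (FDR 0.0193). The list and EMPA cannot be told apart beyond that 1 library. Scaling to library totals without normalization factors, which shifted the median gene by -0.31 in this comparison, gave 0.26 and 0.37. DESeq2 called 812 genes in this comparison and neither member (adjusted p 0.0662 and 0.0700).

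In ECs the difference had the other sign. Mt1 was -0.50 in EMPA–Pre-AMI against Control-AMI (SE 0.40, interval -1.39 to 0.38, FDR 0.723) and Mt2 was -0.82 (SE 0.51, interval -1.96 to 0.32, FDR 0.612). Background calls in this comparison were 2.63% of genes. On the one list that held libraries of both groups, Mt1 averaged 709.7 CPM in 2 Control-AMI and 361 CPM in 3 EMPA–Pre-AMI libraries. Summed fibroblast markers in these libraries, as a percentage of the fibroblast mean of the same condition, also differed. They were 9.18% and 10.9% in Control-AMI, against 2.30% to 3.90% in EMPA–Pre-AMI, and their part in the Mt1 difference was not tested. In fibroblasts the differences were close to 0, at -0.21 for Mt1 (SE 0.36, interval -0.97 to 0.55) and -0.06 for Mt2 (SE 0.42, interval -0.98 to 0.85), both at an FDR of 1.00. No gene was called in this fibroblast comparison (0% by edgeR and 0 genes by DESeq2), and 170 genes had an unadjusted p under 0.05.

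**Figure D2:**
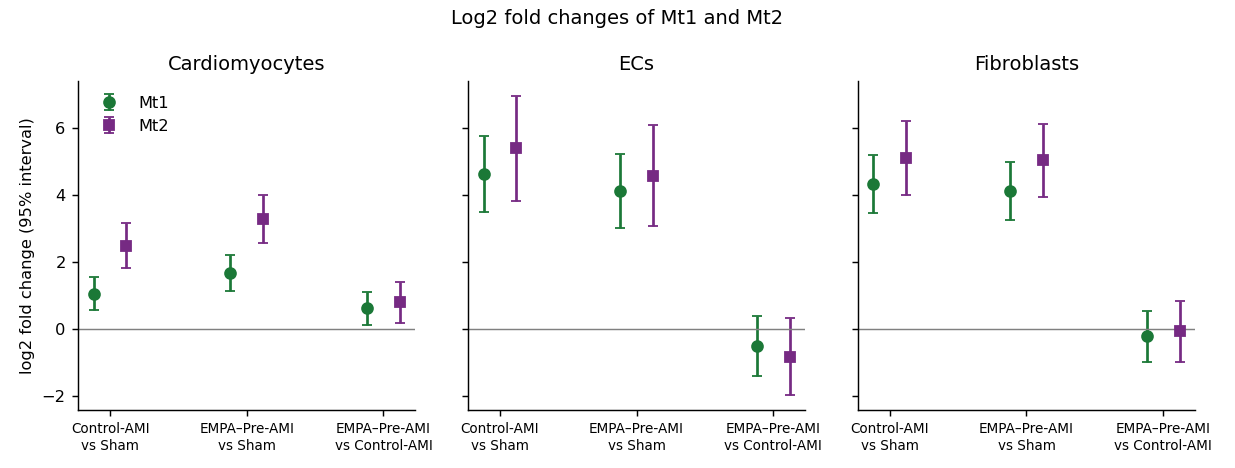
Log2 fold changes of Mt1 (circles) and Mt2 (squares) with 95% intervals in 3 comparisons within each population. The differences from Sham, on which the genes were selected, range from 1.06 to 5.40 and are a description. The intervals of EMPA–Pre-AMI against Control-AMI lie above 0 in cardiomyocytes only, where the FDR did not pass the threshold, and include 0 in ECs and fibroblasts.

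The change of sign between cardiomyocytes and ECs did not pass the test of the difference itself. In a fit of all 38 libraries, the EMPA difference was larger in cardiomyocytes than in ECs by 1.09 for Mt1 (SE 0.49, interval 0.09 to 2.09, FDR 0.263) and by 1.57 for Mt2 (SE 0.63, interval 0.30 to 2.85, FDR 0.202). Of 12085 genes, 0.993% were called in this test. Fibroblasts differed from ECs by 0.32 and 0.78 and from cardiomyocytes by -0.77 and -0.80, with FDRs of 0.481 to 1.00 and background calls of 2.04% and 0.00827%.

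The order of the populations was read on the joint scale, in which one set of normalization factors covers all 38 libraries. In Sham hearts Mt1 was 541 ± 45.4 CPM in cardiomyocytes, 226 ± 131 in fibroblasts and 14.9 ± 8.24 in ECs, each from 4 libraries. Fibroblasts were lower than cardiomyocytes by 1.26 on the log2 scale (SE 0.38, FDR 0.00608), and they exceeded ECs by 3.91 (SE 0.43, FDR 3.00e-09). Cardiomyocytes exceeded ECs by 5.17 (SE 0.45, FDR 7.98e-12). By the inferred sample-sheet lists, Sham cardiomyocytes and Sham ECs shared no list, so population and list cannot be told apart there. The infarcted groups were spread unevenly over the lists, and no list term was fitted to populations within a condition. For Mt2 the Sham order was fibroblasts with 132 ± 71.0 CPM, cardiomyocytes with 84.7 ± 21.4 and ECs with 7.45 ± 6.33. The first neighbours in that order did not differ beyond their spread (log2 0.64, interval -0.34 to 1.62, FDR 0.287), and cardiomyocytes exceeded ECs by 3.48 (SE 0.56, FDR 4.90e-06). Background calls in Sham were 37.7% of genes for fibroblasts against ECs, 47.3% for fibroblasts against cardiomyocytes and 52.9% for cardiomyocytes against ECs.

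After infarction fibroblasts held the highest level of both genes, in libraries that also served to select them. In Control-AMI Mt1 was 4591 ± 1376 CPM in fibroblasts, 1116 ± 333 in cardiomyocytes and 379 ± 98.8 in ECs, and all neighbours differed (fibroblasts against cardiomyocytes log2 2.04, FDR 1.21e-05, and cardiomyocytes against ECs log2 1.56, FDR 0.000632). Mt2 was 4621 ± 1655 CPM in fibroblasts, 472 ± 145 in cardiomyocytes and 329 ± 141 in ECs, and the last pair did not differ beyond its spread (log2 0.52, interval -0.39 to 1.44, FDR 0.363). In EMPA–Pre-AMI the order was the same for both genes and every pair passed the test. Mt1 was 3957 ± 1474, 1644 ± 518 and 262 ± 134 CPM there, and Mt2 was 4411 ± 2147, 782 ± 322 and 183 ± 103 CPM. Background calls were 31.8%, 46.2% and 46% in Control-AMI, against 40.6%, 55.8% and 60.2% in EMPA–Pre-AMI, for fibroblasts against ECs, fibroblasts against cardiomyocytes and cardiomyocytes against ECs.

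The position of cardiomyocytes depended on the scale. Scaling to library totals without factors shifted the median gene by 1.54 to 1.82 in fibroblasts against cardiomyocytes and by -1.94 to -1.67 in cardiomyocytes against ECs. On that scale Sham Mt1 was 0.49 higher in fibroblasts than in cardiomyocytes (FDR 0.235), and in Control-AMI cardiomyocytes were below ECs by 0.08 for Mt1 (log2 -0.08, FDR 0.847) and by 1.08 for Mt2 (log2 -1.08, FDR 0.0309). Sham Mt2 was then 2.39 higher in fibroblasts than in cardiomyocytes (FDR 0.000106), and in EMPA–Pre-AMI cardiomyocytes exceeded ECs by 0.70 for Mt1 (FDR 0.0760) and 0.11 for Mt2 (FDR 0.826), no longer past the threshold. Leaving out the mitochondrially encoded genes before computing the factors changed no call, and fibroblasts against ECs kept their direction and call on every scale in all 3 groups.

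The members did not contribute equally, and their balance moved with infarction and population. A count in these 3′ libraries stands for 1 transcript end whatever its length, so the Mt1 share of the summed Mt1 and Mt2 counts can be read within a library, and no scaling enters it. In cardiomyocytes the share was 87.8%, 82.7%, 89.6% and 85.8% in Sham, 62.3% to 76.4% (median library at 70.9%) in Control-AMI, against 59.01% to 72.7% in EMPA–Pre-AMI. In ECs it was 61.9% to 79.5% in Sham, 49.5% to 60.1% in Control-AMI, against 56.2% to 63.2% in EMPA–Pre-AMI. In fibroblasts it was 52.6% to 73.7%, 47.3% to 52.1% and 44.0% to 51.0%. Every Sham group lay above the Control-AMI group of its population, which restates that the Mt2 fold changes exceeded those of Mt1 and is given without a test. Fibroblast RNA was also present in the cardiomyocyte and EC libraries, and its part in their shares was not tested.

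Between EMPA–Pre-AMI and Control-AMI the share differed by -1.89 percentage points in cardiomyocytes, 4.85 in ECs and -2.23 in fibroblasts. None of these passed (exact permutation tests, two-sided, Benjamini-Hochberg adjusted p over 12 tests 0.611, 0.226 and 0.377). Between populations, fibroblasts were below cardiomyocytes in Control-AMI (difference -19.96 points, exact permutation adjusted p = 0.0476) and below ECs in EMPA–Pre-AMI (difference -11.6 points, exact permutation adjusted p = 0.0476). In EMPA–Pre-AMI, with 4 against 4 libraries, fibroblasts were also below cardiomyocytes without overlap (difference -20.3 points, exact permutation adjusted p = 0.0571). Control-AMI cardiomyocytes exceeded ECs without overlap (difference 15.5 points, exact permutation adjusted p = 0.0571). The remaining pairs of infarcted groups overlapped. Sham fibroblasts and Sham ECs were each below Sham cardiomyocytes without overlap, at 63.4 ± 8.73% and 69.8 ± 8.83% against 86.5 ± 2.96%. Groups of 4 against 4 cannot go below p = 0.0286, and both of those comparisons reached an exact permutation adjusted p of 0.0571. Both calls in infarcted hearts were lost when any 1 library of those groups was left out, since smaller groups allow no smaller p. The infarcted libraries also served to select the members, and Sham cardiomyocytes and Sham ECs shared no sample-sheet list. The share in Sham ECs rested on 28 to 139 counts per library, so a single library there had a Wilson 95% interval as wide as 56.6% to 87.3%. These intervals cover counting error only.

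**Figure D3:**
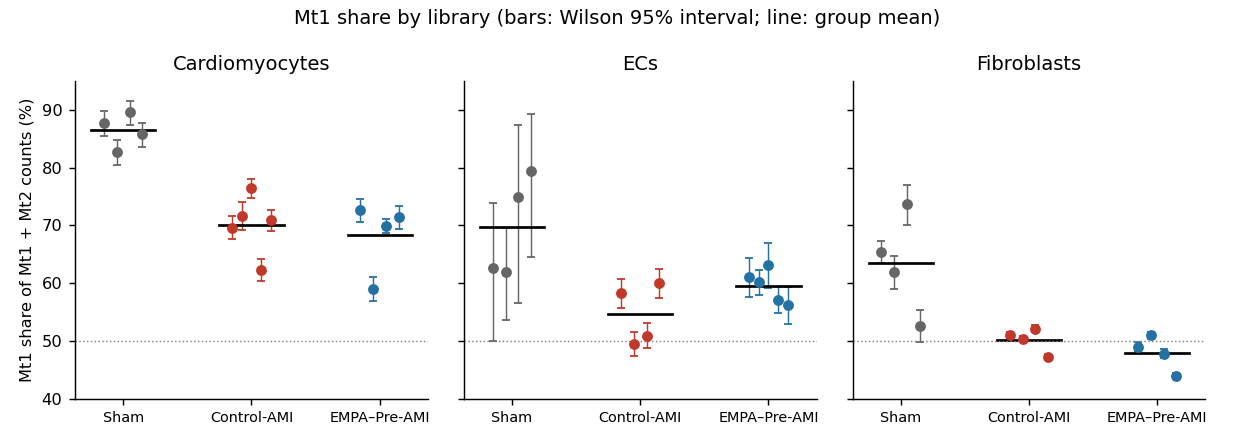
Share of Mt1 in the Mt1 and Mt2 counts of each library, in percent, with Wilson 95% intervals, by group and population; lines are group means and the dotted line marks equal counts. Sham cardiomyocytes lie between 82.7% and 89.6%, and infarcted fibroblasts between 44.0% and 52.1%.

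Fibroblast RNA in the other populations was measured beside these levels, since infarcted fibroblasts held so much of both transcripts. In ECs, 7 of 8 tested fibroblast markers were higher in Control-AMI than in Sham, and 8 of 8 were lower in EMPA–Pre-AMI than in Control-AMI, against 6.56% and 2.63% of all genes called in either direction. None of the 9 fibroblast markers was at 0 in any EC or cardiomyocyte group. Their summed level, as a percentage of the fibroblast mean of the same condition, was 1.93% to 5.85% in Sham ECs, 9.18% to 39.3% in Control-AMI ECs and 1.98% to 3.90% in EMPA–Pre-AMI ECs. In cardiomyocytes it was 12.4% to 18.6%, 10.7% to 28.1% and 3.27% to 19.9%.

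These percentages of the fibroblast level of Mt1 can be set beside the measured Mt1, on the joint scale. In Control-AMI ECs the marker percentages would carry 422 to 1805 CPM and 253 to 481 CPM were measured, with 1 of 4 libraries above its value. Replicate 1, which had the most fibroblast marker RNA of the Control-AMI ECs, had the least Mt1. In EMPA–Pre-AMI ECs they would carry 78.4 to 154 CPM and 131 to 426 CPM were measured, above in 5 of 5 libraries for Mt1 and in 3 of 5 for Mt2. In Sham ECs the measured Mt1 was above in 4 of 4 libraries and Mt2 in 2 of 4. The part of fibroblast RNA in the EC levels of Control-AMI was not tested.

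In Sham cardiomyocytes the marker percentages would carry 27.9 to 42.1 CPM of Mt1, and 481 to 588 CPM were measured. In Control-AMI cardiomyocytes they would carry 493 to 1292 CPM and 713 to 1587 CPM were measured, above in 3 of 5 libraries for Mt1 and in 0 of 5 for Mt2. In EMPA–Pre-AMI cardiomyocytes they would carry 130 to 787 CPM and 1137 to 2365 CPM were measured, above in 4 of 4 libraries for Mt1 and in 3 of 4 for Mt2. Of these, replicate 3 had the least fibroblast marker RNA and the most Mt1 (2365 CPM), and replicate 2 had the most marker RNA, the most Mt2 (1097 CPM) and the next highest Mt1 (1580 CPM). Leukocyte markers summed to 73.8 to 430 CPM in infarcted cardiomyocytes and 56.6 to 137 CPM in Sham, with 1 of 6 tested markers called higher in Control-AMI (0.0655% of all genes called). In ECs they summed to 5.52 to 26.9 CPM in Sham, 24.2 to 507 in Control-AMI, against 14.1 to 88.1 in EMPA–Pre-AMI. The 507 CPM came from Control-AMI replicate 3, and the other Control-AMI libraries held 24.2 to 39.7 CPM. Replicate 3 also had the most Mt1 and Mt2 of the Control-AMI ECs. With that library included, the median log2 difference of the leukocyte markers was 4.09 for Control-AMI against Sham and -1.54 for EMPA–Pre-AMI against Control-AMI. Of 5 tested markers 0 were called, where 6.56% and 2.63% of all genes were called in these comparisons. The part of leukocyte RNA in the levels of Mt1 and Mt2 was not tested.

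**Figure D4:**
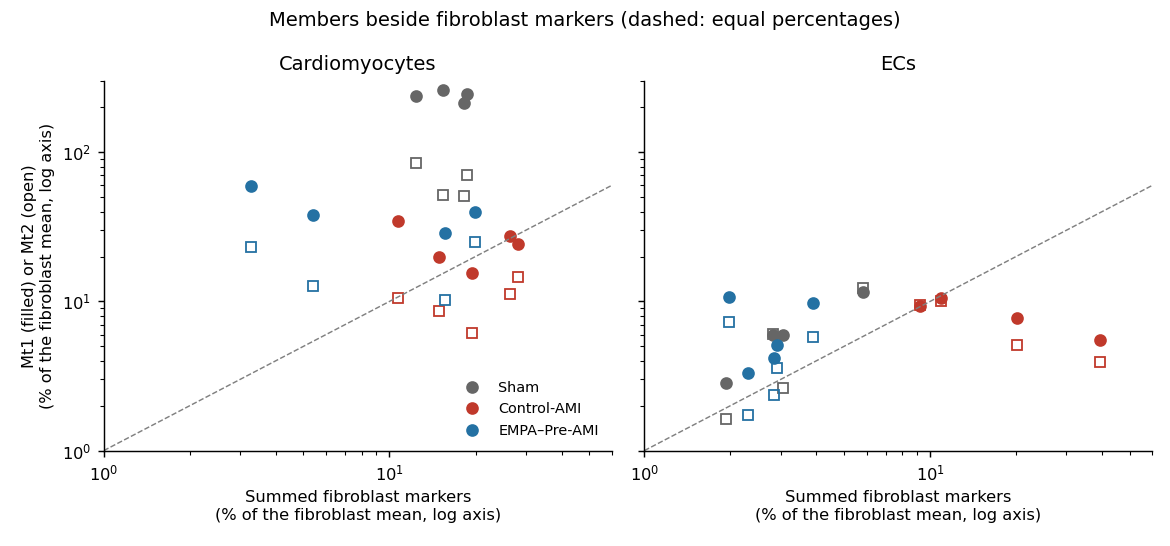
Mt1 (filled) and Mt2 (open) in cardiomyocyte and EC libraries against summed fibroblast markers, each as a percentage of the fibroblast mean of the same condition, on log axes with a dashed line of equal percentages. Points on or below the line have no more of the transcript than the marker percentage would carry, as in 3 of 4 Control-AMI EC libraries for Mt1; Sham cardiomyocytes lie far above it.

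Few other genes of zinc handling were called, a number near what the background shares below give for lists of this size. The list held 10 exporters of the Slc30 family, which move zinc out of the cytosol, 14 importers of the Slc39 family, which bring it in, and Mtf1, the metal sensor. Of the exporters 3 were tested in cardiomyocytes, 6 in ECs and 6 in fibroblasts, and none was called in any comparison, with log2 differences of -0.41 to 0.56. Background calls in Control-AMI against Sham were 0.0655% of genes in cardiomyocytes, 6.56% in ECs and 4.16% in fibroblasts, and in EMPA–Pre-AMI against Sham 0.338%, 2.71% and 5.11%. Of the importers 9, 10 and 10 were tested, and Slc39a14 was the only one called by edgeR. Their median log2 difference between Control-AMI and Sham was 0.11, 0.30 and 0.15, beside 0.01, -0.02 and -0.03 over all genes tested.

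Slc39a14 encodes ZIP14, an importer of zinc and iron that inflammation induces. In ECs it was 17.6 ± 3.78 CPM in Sham, 46.8 ± 15.9 in Control-AMI, against 70.7 ± 15.1 in EMPA–Pre-AMI. It rose by 1.41 on the log2 scale in Control-AMI (SE 0.27, edgeR FDR 0.00281) and by 2.01 in EMPA–Pre-AMI (SE 0.26, FDR 9.65e-05). In fibroblasts it was 13.6 ± 7.11, 38.2 ± 15.2 and 48.7 ± 24.2 CPM, with log2 changes of 1.48 (FDR 0.0582, not past the threshold) and 1.83 (FDR 0.0199). In cardiomyocytes it was 4.36 ± 0.62, 7.28 ± 3.70 and 9.34 ± 6.71 CPM, with no call.

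Slc30a1 encodes ZNT1, the plasma membrane zinc exporter that is itself an MTF1 target. In ECs it was 79.4 ± 14.7 CPM in Sham, 78.1 ± 16.9 in Control-AMI, against 108 ± 18.3 in EMPA–Pre-AMI, and its log2 differences from Sham were -0.03 (SE 0.19, FDR 0.962) and 0.44 (SE 0.18, FDR 0.247). In fibroblasts it was 23.8 ± 2.93, 29.6 ± 4.85 and 22.3 ± 3.35 CPM and in cardiomyocytes 8.48 ± 1.87, 9.86 ± 2.22 and 12.5 ± 1.69 CPM, with no call. Mtf1 differed between Control-AMI and Sham by 0.12 (SE 0.26) in cardiomyocytes, -0.21 (SE 0.27) in ECs and 0.33 (SE 0.26) in fibroblasts, none called. Mt3 and Mt4, the other genes of the cluster, had 15 and 2 counts over all 38 libraries and passed the filter on low counts in no population.

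None of the 9 copper genes tested in each population was called in any comparison, where between 0% and 6.56% of all genes were, so that a count of 0 among 9 is near the background. Of 9 iron genes tested in ECs, 2 were higher in Control-AMI than in Sham (6.56% of all genes called) and 2 were lower with EMPA than in Control-AMI (2.63%), and of 11 in fibroblasts 1 exceeded Sham in the EMPA–Pre-AMI group (5.11%). Among iron genes in ECs, Trf, which encodes the iron carrier transferrin, was 15.5 ± 9.01 CPM in Sham, 42.1 ± 6.43 in Control-AMI, against 15.4 ± 6.77 in EMPA–Pre-AMI. It rose by 1.42 in Control-AMI (FDR 0.0180) and fell by 1.45 with EMPA (FDR 0.0175). Steap3, a reductase of iron uptake, rose by 2.82 (FDR 0.00453) and fell by 3.61 (FDR 0.00246) in the same comparisons, from 4.29 ± 2.76 to 29.9 ± 19.3 and to 2.44 ± 1.62 CPM. These 2 genes moved with the fibroblast markers of the ECs, and the part of those markers in their change was not tested. Hmox1, which encodes the heme-degrading enzyme heme oxygenase, was 1.42 ± 1.09 CPM in Sham and 10.3 ± 6.74 CPM in EMPA–Pre-AMI fibroblasts (FDR 0.0230) and was the only other iron gene called, and it is also on the NRF2 list.

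Genes that answer the other known inducers of metallothioneins were counted in the same comparisons. These lists were chosen with earlier results of these data known, so the counts are a description and not independent of the data. In Control-AMI against Sham, the glucocorticoid list had 2 of 10 tested genes higher in cardiomyocytes, 6 of 10 in ECs and 6 of 10 in fibroblasts. The interleukin-6 and STAT3 list had 0 of 10, 9 of 12 and 6 of 12 higher, the list of NRF2 targets, which answer oxidants, 0 of 6, 4 of 7 and 2 of 8, and the hypoxia list 0 of 8, 3 of 10 and 1 of 9. No gene of these lists was called lower, although some lay below Sham. In ECs the lowest log2 difference was -1.02 on the glucocorticoid list and 0.11 on the interleukin-6 and STAT3 list. On the NRF2 and hypoxia lists it was -0.17 and -0.99. Over all genes 0.0655%, 6.56% and 4.16% were called in this comparison in cardiomyocytes, ECs and fibroblasts. In EMPA–Pre-AMI against Sham ECs, in which 0 of 8 fibroblast markers were called, 7 glucocorticoid, 6 interleukin-6 and STAT3, 3 NRF2 and 2 hypoxia genes were higher, where 2.71% of all genes were called. Median log2 differences between Control-AMI and Sham ECs were 0.92 for glucocorticoid, 1.91 for interleukin-6 and STAT3, 1.16 for NRF2 and 0.44 for hypoxia genes, beside -0.02 over all genes. In fibroblasts they were 1.20, 1.33, 0.89 and 0.52, beside -0.03, and in cardiomyocytes 0.72, 0.12, 0.12 and 0.01, beside 0.01.

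Fkbp5, a glucocorticoid-induced chaperone partner of the receptor, was 20.4 ± 7.54 CPM in Sham ECs, 185 ± 60.9 in Control-AMI, against 265 ± 91.7 in EMPA–Pre-AMI. It rose by 3.17 (FDR 0.000275) and 3.68 (FDR 4.10e-05) there and by 1.18 (FDR 0.0249) and 1.44 (FDR 0.00717) in fibroblasts. In Control-AMI cardiomyocytes Fkbp5 differed from Sham by 0.43 (SE 0.36) and was not called. The 2 genes of its list called there were Cdkn1a and Ddit4. Cdkn1a, the cell cycle inhibitor p21, rose in all populations, in Control-AMI by 1.63 in cardiomyocytes (FDR 0.00683), 1.60 in ECs (FDR 0.000535) and 1.74 in fibroblasts (FDR 0.0106). Of the NRF2 list, Txnrd1, which encodes a thioredoxin reductase, rose by 1.63 in ECs (FDR 0.0126) and 1.84 in fibroblasts (FDR 0.000344) and differed by 0.20 in cardiomyocytes (SE 0.22). Osgin1 rose by 1.60 in ECs (FDR 0.0115) and differed by -0.44 in fibroblasts (SE 0.38).

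Il6, the cytokine itself, had 0 counts in all 4 Sham EC libraries and 15.1 ± 8.37 CPM in Control-AMI, at least 6.79-fold higher when 3 counts in the smallest Sham library are taken as the limit (FDR 0.000714). In fibroblasts it was 2.61 ± 1.82 CPM in Sham and 62.4 ± 40.01 CPM in Control-AMI (log2 4.53, FDR 0.00691). Cebpb, a transcription factor of the acute phase response, rose by 3.01 in ECs (FDR 0.00350) and 2.20 in fibroblasts (FDR 0.0393). Of the hypoxia list, Adm, which encodes adrenomedullin, rose by 1.16 (FDR 0.00977) and Bnip3, a mitophagy receptor, by 1.24 (FDR 0.0226) in ECs, and neither was called in the other populations. With EMPA against Control-AMI, where 0.0218% of all genes were called in cardiomyocytes and 2.63% in ECs, 1 gene of these 4 lists was higher and 1 lower: Ddit4, an inhibitor of mTORC1, by 1.20 in cardiomyocytes (FDR 0.0217) and Il6ra, the interleukin-6 receptor, which fell by 1.40 in ECs (FDR 0.0418). Il6ra was 8.70 ± 3.94 CPM in Sham, 28.1 ± 16.001 in Control-AMI, against 10.6 ± 1.57 in EMPA–Pre-AMI ECs, as the fibroblast markers there moved, and their part in it was not tested.

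**Figure D5:**
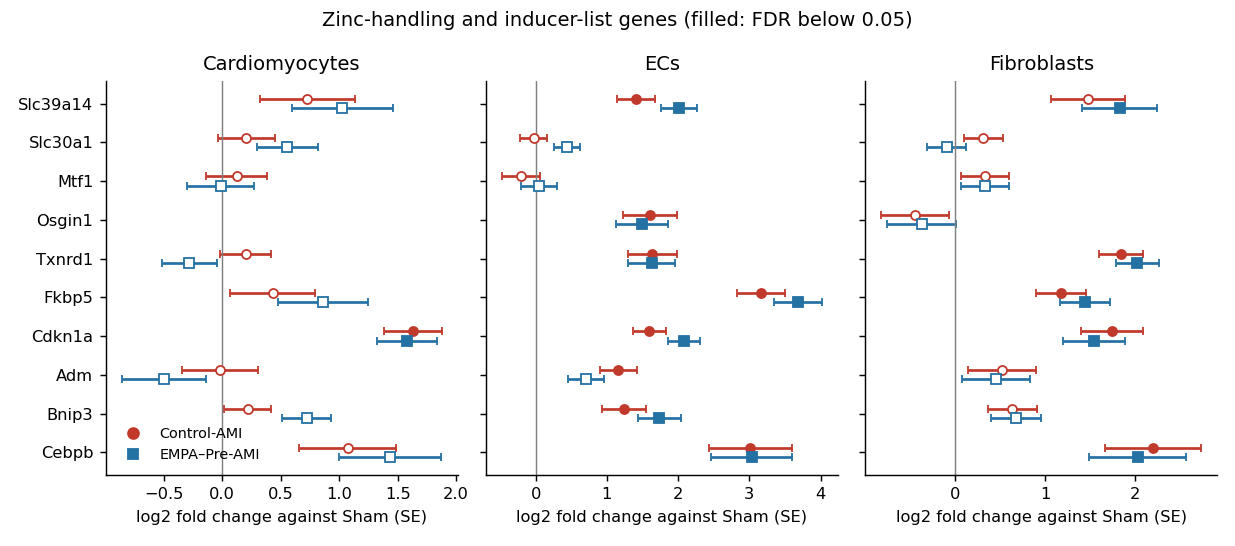
Log2 fold changes against Sham with standard errors for zinc-handling genes and for genes of the inducer lists, in Control-AMI (circles) and EMPA–Pre-AMI (squares); filled symbols have an FDR below 0.05. Slc30a1 and Mtf1 have no filled symbol, whereas Cdkn1a is filled in all 3 populations.

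The genes whose pattern was most like that of the members were ranked by the lowest of 3 Pearson correlations with the mean log2 CPM of Mt1 and Mt2, over 13 cardiomyocyte, 13 EC and 12 fibroblast libraries. Among 8398 genes the first 5 were Gadd45g (lowest r 0.88), Ddit4 (0.86), Cish (0.84), Cebpd (0.84) and Tiparp (0.84). Gadd45g answers growth arrest and DNA damage, Cish is a suppressor of cytokine signalling, Cebpd is an acute phase transcription factor and Tiparp is a target of the aryl hydrocarbon receptor. Mt1 and Mt2 themselves correlated at 0.94 in cardiomyocytes, 0.99 in ECs and 0.99 in fibroblasts. These correlations describe libraries that share the Sham and infarcted groups, and they carry no test.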

How the data were processed

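The authors prepared QuantSeq 3′ libraries, trimmed reads with cutadapt 2.8, assigned them with Salmon to GRCm39 (Ensembl annotation) and deposited estimated counts per gene, not normalized, for 38 libraries. These estimated counts were rounded to whole numbers (4.55% of values were not whole). No 31-base word of the Mt1 transcripts is shared with Mt2, and 2.65% of those of Mt2 are shared with other genes.

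Groups and replicate numbers came from the labels. Each population was fitted by itself in R 4.3.3 with edgeR 4.0.16, as the study's methods describe: filterByExpr (minimum count 10), TMM factors and robust quasi-likelihood tests, with Benjamini-Hochberg adjustment over all genes (FDR, threshold 0.05). One further fit of all 38 libraries compared populations, with no term for hearts shared between them. CPM are TMM-scaled. The Mt1 share was tested by exact permutation, with Wilson 95% intervals per library. The scripts were tested on simulated counts. Members and gene lists were chosen with earlier results of these data known. Named were Mt1, Mt2, zinc, copper and iron genes that were called, Slc30a1, Mtf1, the 2 genes of each inducer list with the smallest FDR in Control-AMI against Sham ECs, EMPA-called genes of those lists, and the 5 most similar genes. Iron genes and EMPA-called inducer genes were named after their values were seen.

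Over 62 pairs of libraries of 1 group, chi-square per degree of freedom was 4.33 to 70.8, where counting error alone gives about 1, and none was treated as a repeat deposit. P-values measure the spread between libraries of 2 pooled hearts. Alternatives were DESeq2 1.42.0, RLE factors, library totals, no filter, no robust estimation, no mitochondrially encoded genes, fits of just the pair of groups in question, a replicate block, the sample-sheet list as a term and each library left out. The list term was not used for populations within a condition.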

Additional observations from a re-analysis of the deposited data

How the results depend on the processing

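Of 1731 values from alternatives for 63 results, 1683 kept their direction and their side of the threshold, or stayed within the limit set. A limit was set for counts of called genes, and for Mt1 and Mt2 against Sham, which carry no test. Those differences from Sham had to keep their direction and move by less than the pooled SD of log2 CPM within groups. Of 375 values that left out no library, 358 did so, and of 1356 that left out 1 library, 1325 did.

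When the sample-sheet list entered the model, Mt2 in EMPA–Pre-AMI against Control-AMI was -0.091 in cardiomyocytes and 0.069 in fibroblasts, and in cardiomyocytes against Sham Mt1 was 1.06 and Mt2 2.40. Only 1 EMPA–Pre-AMI cardiomyocyte library shares a list with the other groups. DESeq2, the replicate block and the list term each called 1 zinc-handling gene in fibroblasts in Control-AMI against Sham and 2 in EMPA–Pre-AMI against Sham, where 0 and 1 were called in the fit reported. The genes were Slc39a14 and, in the second comparison, Slc39a8. Over all genes, DESeq2 called 18, 812 and 198 in cardiomyocytes where edgeR called 6, 2 and 31, for infarction with vehicle, EMPA against vehicle and infarction with EMPA in turn. In fibroblasts it called 772 and 858 against Sham where edgeR called 445 and 546, and in ECs 889, 343 and 421 where edgeR called 685, 274 and 283. Library totals without factors, chosen after seeing the data, gave 0.49 for Mt1 and 2.39 for Mt2 in Sham fibroblasts against cardiomyocytes, -0.076 and -1.08 in Control-AMI cardiomyocytes against ECs, and 0.70 and 0.11 in EMPA–Pre-AMI cardiomyocytes against ECs. The Mt1 share of Sham fibroblasts against ECs was 1.14 points when libraries needed 50 counts of both genes. The cause of these changes was not tested.

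Leaving out 1 library at a time, Mt1 in cardiomyocytes with EMPA against Control-AMI ranged from 0.42 to 0.78 and Mt2 from 0.53 to 1.00, and both passed the threshold only without EMPA–Pre-AMI replicate 4. Mt2 in fibroblasts ranged from -0.45 to 0.13, with the sign reversed when Control-AMI replicate 2, Control-AMI replicate 4, EMPA–Pre-AMI replicate 1 or EMPA–Pre-AMI replicate 3 was left out. Called zinc-handling genes in fibroblasts ranged from 0 to 1 in both comparisons with Sham, with 1 in Control-AMI without Sham replicate 4 or EMPA–Pre-AMI replicate 4, and 0 in EMPA–Pre-AMI without Sham replicate 3 or EMPA–Pre-AMI replicate 4. Mt1 share differences ranged from -3.86 to 1.20 points for EMPA in cardiomyocytes, reversed without EMPA–Pre-AMI replicate 2. They ranged from -21.9 to -18.4 for Control-AMI fibroblasts against cardiomyocytes, from -23.4 to -18.8 for EMPA–Pre-AMI fibroblasts minus cardiomyocytes, from 7.27 to 11.8 for cardiomyocytes minus ECs, and from -12.6 to -10.3 for EMPA–Pre-AMI fibroblasts against ECs. The EMPA–Pre-AMI differences of fibroblasts and of ECs from cardiomyocytes passed only without cardiomyocyte replicate 2 (exact permutation adjusted p of 0.0490 for each). Both share differences that passed had exact permutation adjusted p of 0.0571 to 0.0686 with 1 library fewer, since smaller groups allow no smaller value.

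Without EC Sham replicate 2, Mt2 in Sham was 4.86 higher in fibroblasts and 4.22 higher in cardiomyocytes than in ECs. Within a population, same-numbered libraries of 2 groups had deviations correlated at -0.11 to 0.48 over 36 pairs, so the numbers were not taken as pairs. Libraries of different populations, which can share hearts, were not compared in this way. The replicate block, which gave 0.67 and 0.79 for Mt1 and Mt2 with EMPA in cardiomyocytes, changed no call other than the zinc counts. Depth limits the low EC Sham levels, where Mt2 rested on 7 to 53 counts.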
